A study of Cricetulus griseus with 40 samples.

Results

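The genes described here encode the enzymes that place, keep and remove methyl groups on DNA cytosines, their closest partners, and the histone methyltransferase Ezh2. They were chosen by name: Dnmt1, Dnmt3a, Dnmt3b, Uhrf1, Tet1, Tet2, Tet3, Ezh2, Hells and Cdca7. Of these 10 symbols, 9 were matched to 9 of the 26793 gene IDs in the deposited tables, and Dnmt3b was not matched. The IDs are NCBI Gene IDs, 100762713 for Dnmt1, 100771064 for Dnmt3a, 100758459 for Uhrf1, 100771765 for Tet1, 100769811 for Tet2, 100769509 for Tet3, 100758055 for Ezh2, 100754676 for Hells and 100774637 for Cdca7.

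The samples are CHO-S cells, a suspension-growing line derived from Chinese hamster ovary (Cricetulus griseus) and used to make recombinant proteins. The cells grew as batch cultures in shake flasks, in CD CHO medium with L-glutamine, an anti-clumping agent and Pen-Strep, and no agent, gene or feed distinguishes any group from another. The 10 groups are the times after seeding, 72, 84, 96, 108, 120, 132, 144, 156, 168 and 180 h, with 4 libraries each and 40 libraries in all, made from mRNA with a stranded kit. The design text gives 4 cultures, but the labels do not say which library came from which culture, so the p-values below measure the spread between these libraries only. No untreated comparison exists apart from the earliest time, and all groups share a single line, so time in culture cannot be told apart from anything else that changed along the batch.

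DNA methylation at CpG sites is copied at each round of replication. Uhrf1 recognises newly replicated, hemimethylated sites and brings in Dnmt1, the maintenance methyltransferase, while the chromatin remodeller Hells and its DNA-binding partner Cdca7 open nucleosomes so that methylation can be kept there. Dnmt3a and Dnmt3b add methyl groups to unmethylated sites, and the Tet dioxygenases oxidise methylcytosine as a step towards its removal. Ezh2 is the catalytic subunit of Polycomb repressive complex 2 (PRC2), which methylates lysine 27 of histone H3 (H3K27). In CHO cell lines, methylation and histone marks at the promoters of introduced genes are known as routes to loss of product expression.

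Levels are in FPKM, fragments scaled to transcript length and to the size of the library, so that levels can be set side by side between genes. Between 10904 and 11537 genes per library reached 1 FPKM, and the libraries' relative sequencing depth, read from the size of the smallest steps in the tables, ran from 0.822 to 1.242. Absolute depth is unknown. Of the CHO traits examined, St6gal1 was listed at 0 in every library and Vim was high (509 ± 32.3 FPKM at 72 h, SD, n = 4). Of 9 ovarian cell markers, 7 were in the tables and 3 passed the filter on low values: Star rose from 1.30 ± 0.401 FPKM at 72 h to 2.82 ± 0.187 FPKM at 180 h (SD, n = 4; limma adjusted p = 8.87e-06), while Ddx4 (1.80 and 1.68 FPKM) and Inha (0.28 and 0.639 FPKM) did not pass the test. The receptor genes Fshr and Lhcgr were listed at 0 throughout, and the summed level of the list was 2.82 to 4.04 FPKM at 72 h and 4.96 to 5.69 FPKM at 180 h; its part in the results was not tested. Of 18 marker genes of other cell types, 14 were in the tables, and Ptprc, Cd3e and Krt14 were listed at 0. Only Alb passed the filter on low values (1.26 and 0.697 FPKM at 72 and 180 h, limma adjusted p = 0.0606). Below the filter, Pecam1 went from 0.433 ± 0.0579 to 0.919 ± 0.164 FPKM and Acta1 from 0.0582 ± 0.116 to 0.33 ± 0.251 FPKM (SD, n = 4). With no filter, 11 of these markers were tested, and 2 were higher and 0 lower at 180 h. The summed level of the list was 1.58 to 1.96 FPKM at 72 h and 1.68 to 2.37 FPKM at 180 h. The first principal component of the deviations from the time means, called the within-time axis below, held 52.4% of the variance within times, and replicate 1 of 96 h and replicate 4 of 84 h lay farthest out on it.

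Between 72 and 180 h, the maintenance and remodelling genes and Ezh2 fell, while Dnmt3a, Tet2 and Tet3 did not pass the test of these 2 times. At 180 h against 72 h, 5 of the 8 members tested were lower (Dnmt1, Uhrf1, Hells, Cdca7 and Ezh2) and none was higher (limma, Benjamini-Hochberg adjusted p below 0.05 over all 12259 genes tested). Among all tested genes 33.5% were lower and 15.8% were higher, so 5 of 8 stands beside a background in which a fall was already common. Across all 10 times, 6 of the 8 passed the F test against 49.9% of all genes, namely the 5 lower ones and Dnmt3a. Tet2 (limma adjusted p = 0.31) and Tet3 (limma adjusted p = 0.0525) did not pass it. In bulk RNA, fewer cells in a given state and less of the RNA per cell cannot be told apart.

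**Figure D1:**
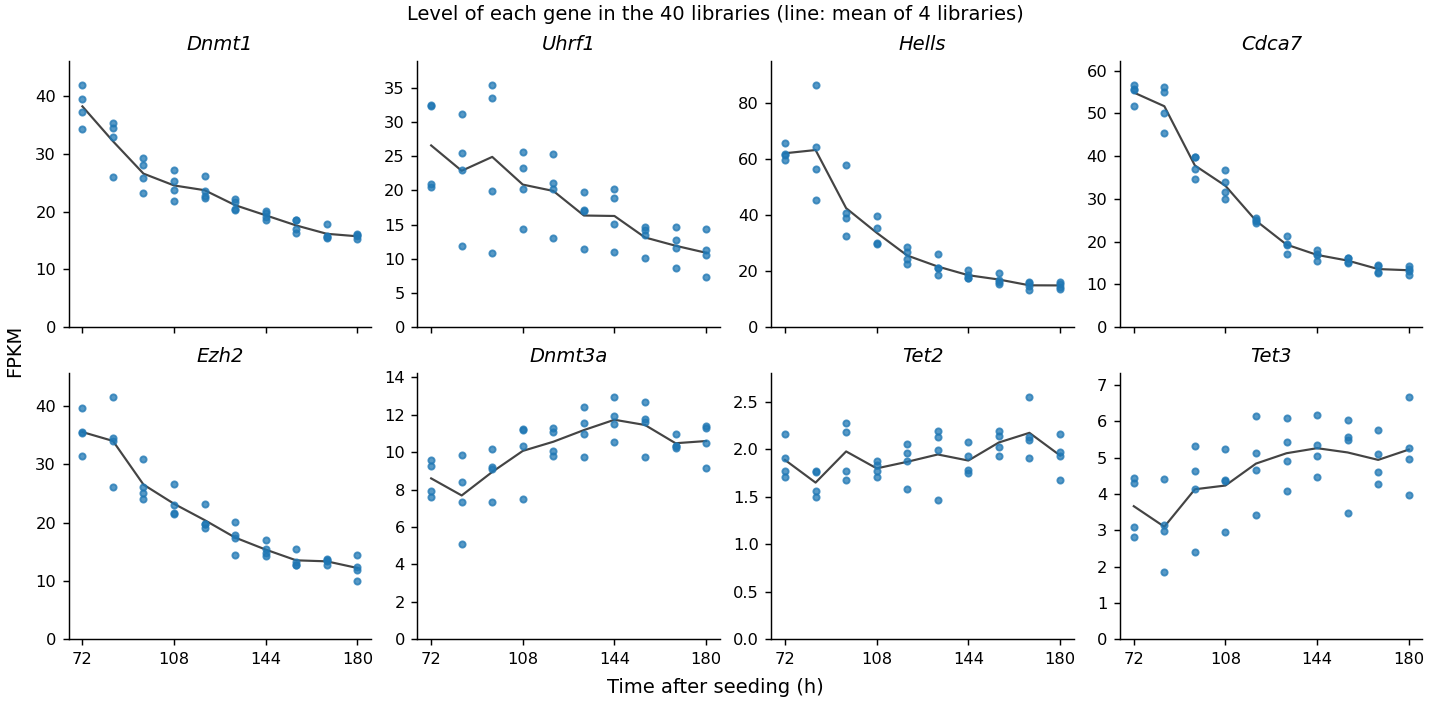
Level in FPKM (vertical axis, linear from 0, scaled per gene) against time after seeding in hours for the 8 members that passed the filter; points are libraries and the line joins the means of 4. Dnmt1, Uhrf1, Hells, Cdca7 and Ezh2 descend to between 10.9 and 15.7 FPKM at 180 h, while Dnmt3a lies between 7.68 and 11.7 FPKM on average and Tet2 stays near 2 FPKM.

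Dnmt1, which restores methylation on the new DNA strand, measured 37.2, 34.3, 39.5 and 41.9 FPKM in the 4 libraries of 72 h. At 180 h it measured 15.2, 15.7, 16.1 and 16.0 FPKM. The groups did not overlap, and the 180 h libraries lay within 1 FPKM of each other. The mean fell 2.43-fold, from 38.2 ± 3.21 to 15.7 ± 0.377 FPKM (SD, n = 4), a log2 change of -1.22 ± 0.08 (SE, limma adjusted p = 2.03e-14). The mean was lower at each of the 9 successive time steps. From 96 h onwards every library was below every library of 72 h, at 8 of the 9 later times; 6.26% of all tested genes were already apart in that way at 96 h, and 30.8% at 180 h.

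Uhrf1, the reader of hemimethylated CpG sites, fell by a like amount but with far more scatter. Its libraries of 72 h measured 20.4, 21.0, 32.3 and 32.5 FPKM, and those of 180 h measured 14.4, 11.3, 10.5 and 7.28 FPKM. The 72 h values form a lower and an upper pair, and all 4 exceeded those of 180 h, as held for 30.8% of all tested genes. The mean fell 2.44-fold, from 26.6 ± 6.78 to 10.9 ± 2.92 FPKM (SD, n = 4), a log2 change of -1.22 ± 0.29 (SE, limma adjusted p = 0.000788). At 96 h the replicates spanned 10.8 to 35.3 FPKM, a range wider than the difference between the means of 72 and 180 h. All libraries were below those of 72 h only from 132 h onwards. Its paralogue Uhrf2, named here after its values were seen, measured 37.4 ± 5.33 FPKM at 72 h and 38.6 ± 5.83 FPKM at 180 h (SD, n = 4; log2 change 0.04 ± 0.13, SE, limma adjusted p = 0.8).

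Hells and Cdca7 had the largest falls of the 8 members and were the highest at the start. Hells, a SNF2-family remodeller, measured 61.7, 65.5, 59.5 and 61.2 FPKM at 72 h and 13.6, 14.4, 15.4 and 16.2 FPKM at 180 h. Cdca7, the zinc-finger protein that recruits it, measured 51.7, 56.5, 55.4 and 55.8 FPKM at 72 h and 12.3, 13.0, 13.6 and 14.3 FPKM at 180 h. Each pair of groups was far apart, with no 180 h library above 16.2 FPKM in either gene. Hells fell 4.16-fold (log2 change -1.99 ± 0.14, SE, limma adjusted p = 9.8e-14) and Cdca7 fell 4.12-fold (log2 change -1.96 ± 0.07, SE, limma adjusted p = 5.93e-21).

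Both were still near their first level at 84 h. Hells averaged 63.1 ± 17.2 FPKM (SD, n = 4) there, with libraries at 45.5, 56.5, 64.3 and 86.2 FPKM, so its 84 h spread covers the whole 72 h range. Cdca7 averaged 51.6 ± 4.98 FPKM at 84 h (SD, n = 4). By 120 h Hells had a mean of 25.6 ± 2.59 FPKM and Cdca7 a mean of 24.9 ± 0.441 FPKM (SD, n = 4). In both genes every library from 96 h onwards lay below every 72 h library, as held for 6.26% of all tested genes at 96 h and 30.8% at 180 h.

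Ezh2, which writes the repressive H3K27 methyl mark, measured 35.6, 39.8, 35.5 and 31.4 FPKM at 72 h and 10.0, 12.5, 11.9 and 14.5 FPKM at 180 h. The groups did not overlap, and 30.8% of all tested genes likewise had every 180 h library below every 72 h library. The mean fell 2.91-fold, from 35.6 ± 3.41 to 12.2 ± 1.87 FPKM (SD, n = 4), a log2 change of -1.47 ± 0.11 (SE, limma adjusted p = 6.58e-13), and was lower at each of the 9 steps.

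Dnmt3a, a de novo methyltransferase, measured 7.62, 7.92, 9.27 and 9.56 FPKM at 72 h and 11.4, 11.3, 10.5 and 9.18 FPKM at 180 h. The lowest 180 h library lay inside the 72 h range. The mean was 8.60 ± 0.962 FPKM at 72 h and 10.6 ± 1.02 FPKM at 180 h (SD, n = 4), a log2 difference of 0.27 ± 0.13 (SE) that missed the threshold (limma adjusted p = 0.0716). Its time course did pass the F test (limma adjusted p = 0.00266). The mean was lowest at 84 h, at 7.68 ± 2.00 FPKM, and highest at 144 h, at 11.7 ± 0.988 FPKM (SD, n = 4). From 120 to 168 h, at 5 times, every library exceeded every 72 h library; at 144 h this held for 15.1% of all tested genes.

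The Tet genes were the lowest members. Tet1 was listed at 0 in 39 of the 40 libraries and at 0.0114 FPKM in the other, and was not tested. Tet2 measured 1.77, 2.15, 1.71 and 1.91 FPKM at 72 h and 1.68, 1.97, 2.16 and 1.93 FPKM at 180 h, ranges that nearly coincide, with a log2 difference of 0.02 ± 0.08 (SE, limma adjusted p = 0.833). Its time means ran from 1.65 FPKM at 84 h to 2.17 FPKM at 168 h.

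Tet3 measured 2.83, 3.08, 4.30 and 4.44 FPKM at 72 h and 6.67, 5.28, 4.96 and 3.98 FPKM at 180 h. The groups overlap through the lowest 180 h library, which is replicate 4. The mean was 3.66 ± 0.828 FPKM at 72 h and 5.22 ± 1.11 FPKM at 180 h (SD, n = 4), a log2 difference of 0.42 ± 0.19 (SE, limma adjusted p = 0.0716).

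The result for Dnmt3a and Tet3 hung on the settings. With median-ratio scaling between libraries both passed as higher at 180 h, Dnmt3a at 0.43 (limma adjusted p = 0.00715) and Tet3 at 0.55 (limma adjusted p = 0.0211). That scaling moved the median log2 change of all genes from -0.10 to 0.04 and turned the whole-table split from 1938 higher and 4101 lower into 2860 higher and 2857 lower. Without replicate 4 of 180 h both also passed, Dnmt3a at an adjusted p of 0.039 and Tet3 at 0.0353 in limma, and Tet3 passed at 0.0478 without replicate 4 of 72 h. These were the only passes among 8 fits that each left out 1 library of 72 or 180 h. Dnmt3a passed in 1 of the 8 (limma adjusted p from 0.039 to 0.19) and Tet3 in 2 (0.0353 to 0.234). The 5 falling genes were lower under every setting tried.

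**Figure D2:**
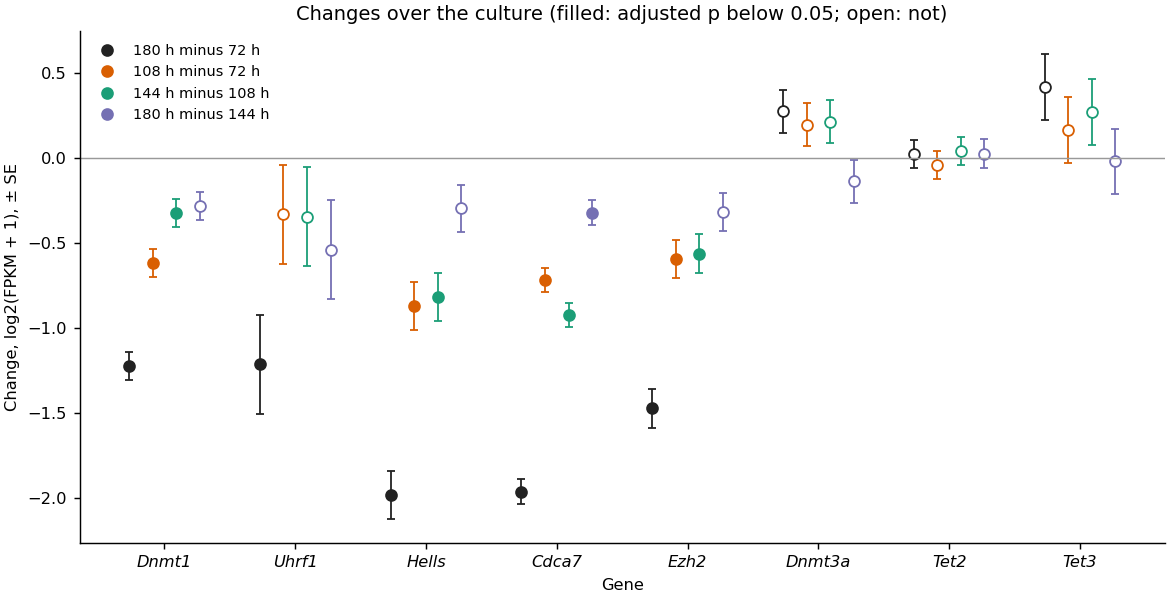
Log2 change of each of the 8 tested members in the first, middle and last window and from 72 to 180 h, with bars for the standard error of the limma fit. Hells and Cdca7 reach -1.99 and -1.96 over the batch, and Dnmt3a, Tet2 and Tet3 lie at or above 0 from 72 to 180 h.

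The batch was also divided into equal windows. From 72 to 108 h, 4 members were lower against 11.2% of all genes, namely Hells (log2 change -0.87, limma adjusted p = 2.24e-05), Cdca7 (-0.72, 4.4e-09), Dnmt1 (-0.62, 8.2e-07) and Ezh2 (-0.59, 0.000206). Uhrf1 had a log2 change of -0.33 ± 0.29 in that window and did not pass (limma adjusted p = 0.46). From 108 to 144 h the same 4 genes were lower, against 12.7% of all genes, with Cdca7 at -0.93 and Hells at -0.82 on the log2 scale. Dnmt1, at -0.32 (limma adjusted p = 0.00614), did not pass in this window with median-ratio scaling (-0.21, limma adjusted p = 0.0934). Without replicate 4 of 108 h the count of all genes lower in this window was 804 in place of 1553, and it was 1034 and 1035 without replicates 2 and 3 of 144 h.

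From 144 to 180 h, Cdca7 alone was lower (log2 change -0.32 ± 0.07, SE, limma adjusted p = 0.0099), against 0.914% of all genes. Without replicate 3 of 144 h or replicate 1 of 180 h it did not pass (limma adjusted p = 0.0643 and 0.0659), nor with only the compared times in the fit (limma adjusted p = 0.133). Uhrf1 had the largest estimate of the window, -0.54, with an adjusted p of 0.695 in limma. Of the whole change from 72 to 180 h, the first window held 50.6% for Dnmt1, 43.8% for Hells, 40.3% for Ezh2, 36.5% for Cdca7 and 27.2% for Uhrf1. The last window held 44.4% for Uhrf1 and between 15.0% and 23.1% for the other falling genes. The change of the last window was tested against that of the first, and it differed for Cdca7 (0.40 ± 0.10 on the log2 scale, SE, limma adjusted p = 0.0212), against 3.27% of all genes. Hells (0.57, limma adjusted p = 0.114), Dnmt1 (0.34, limma adjusted p = 0.107) and Ezh2 (0.28, limma adjusted p = 0.382) did not pass. Nor did Uhrf1 (-0.21 ± 0.41, SE, limma adjusted p = 0.795), so its larger late share was not told apart from its early share.

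The order of the levels also changed. At 72 h Hells stood above Cdca7, and Cdca7 above Dnmt1, with no overlap between neighbours. Dnmt1, Ezh2 and Uhrf1 followed with overlapping ranges, and then Dnmt3a, Tet3 and Tet2, each apart from the next. At 180 h the first 6 were Dnmt1, Hells, Cdca7, Ezh2, Uhrf1 and Dnmt3a, and every neighbouring pair among them overlapped, from 15.7 FPKM for Dnmt1 down to 10.6 FPKM for Dnmt3a on average. Dnmt3a, at 8.60 FPKM against 26.6 FPKM for Uhrf1 at the start, thus lay within the range of the Uhrf1 libraries at the end. Tet3 and Tet2 stayed last and apart.

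Ratios of paired genes were taken within a library, where library scaling all but cancels, and 5 were tested between 72 and 180 h with an exact two-sided permutation test. With 4 libraries against 4 the smallest p is 0.0286, so a single ratio cannot pass 0.05 once adjusted over the 5. Ezh2 and Ezh1 are the alternative catalytic subunits of PRC2. The log2 ratio of Ezh2 to Ezh1 was 0.92 ± 0.17 at 72 h and -0.56 ± 0.13 at 180 h (SD, n = 4), with libraries between 0.72 and 1.13 at 72 h and between -0.68 and -0.38 at 180 h. These ranges lie on opposite sides of equality and the exact permutation p was the smallest possible, 0.0286, or 0.143 after adjustment. The mean ratio was 0.07 at 120 h and -0.05 at 132 h. Ezh1 itself measured 18.3 ± 2.13 FPKM at 72 h and 18.4 ± 1.97 FPKM at 180 h (SD, n = 4; limma adjusted p = 0.987).

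The other ratios differed less. Dnmt1 to Uhrf1 had a log2 ratio of 0.54 ± 0.26 at 72 h and 0.53 ± 0.40 at 180 h (SD, n = 4; exact permutation p = 0.971). Hells to Cdca7, a pair that acts together, had 0.17 ± 0.07 and 0.15 ± 0.02 (SD, n = 4; exact permutation p = 0.514). Against the replication clamp gene Pcna, Dnmt1 had -2.29 ± 0.19 and -2.06 ± 0.06 (SD, n = 4; exact permutation p = 0.0857, adjusted 0.214). Tet2 to Tet3 had -0.68 ± 0.30 and -1.07 ± 0.33 (SD, n = 4; exact permutation p = 0.171, adjusted 0.286).

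**Figure D3:**
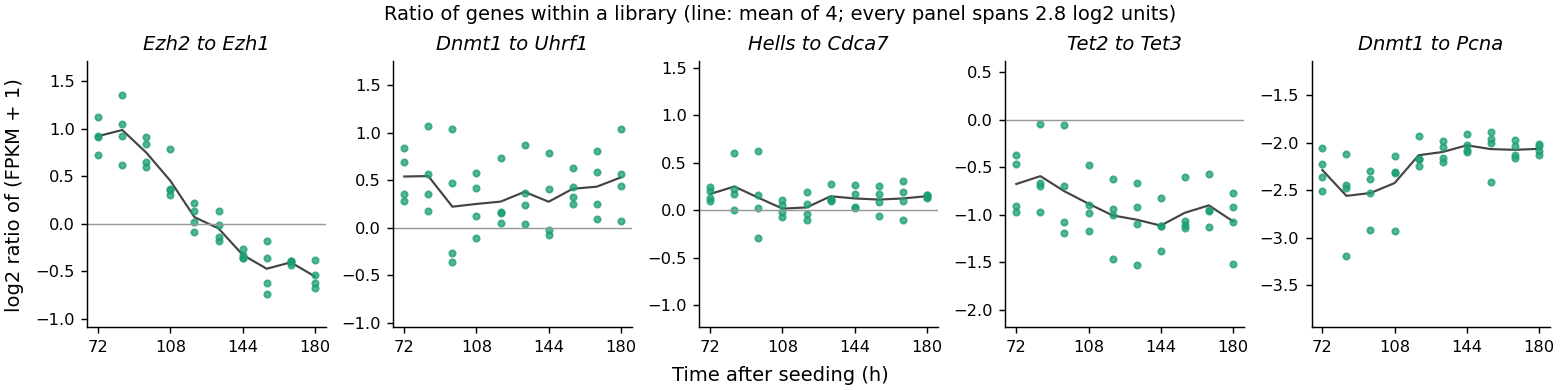
Log2 ratio of (FPKM + 1) within each library (vertical axis) against time after seeding in hours for the 5 gene pairs; points are libraries and lines join the means of 4. Ezh2 to Ezh1 passes from 0.92 at 72 h to -0.56 at 180 h, while Hells to Cdca7 stays between 0.02 and 0.25 on average.

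Other genes of the silencing pathways were described from lists of named genes, by the number that passed the test at 180 h against 72 h. In the lists the share to read against is the background given above for all genes. Of 9 tested PRC2 subunits and partners other than Ezh2, 5 were lower and 1 higher, with a median log2 change of -0.76 against -0.10 over all genes. Suz12, a core scaffold subunit, fell from 24.8 ± 1.87 to 11.6 ± 1.21 FPKM (SD, n = 4; log2 change -1.04, limma adjusted p = 1.7e-07). Eed, the subunit that binds methylated H3K27, and Rbbp4, the histone chaperone subunit, were picked after their values were seen and fell by 0.76 and 0.90 on the log2 scale.

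The Polycomb-like accessory subunits went in different directions. Phf19 fell from 10.9 ± 1.03 to 1.47 ± 0.231 FPKM (SD, n = 4; log2 change -2.27 ± 0.11, SE, limma adjusted p = 2.78e-18), a larger change than that of Ezh2. Mtf2 fell from 12.4 ± 1.51 to 5.57 ± 1.21 FPKM (SD, n = 4; log2 change -1.04, limma adjusted p = 6.23e-07). Phf1 rose from 2.81 ± 0.319 to 9.63 ± 3.00 FPKM (SD, n = 4; log2 change 1.44 ± 0.37, SE, limma adjusted p = 0.00154).

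PRC1 is the Polycomb complex that ubiquitylates histone H2A. Of 16 tested subunits 5 were lower, a share near the background, and 1 was higher, with a median log2 change of 0.07, and with median-ratio scaling 3 were lower and 4 higher. Pcgf5 (-0.55), Cbx2 (-0.52) and Kdm2b (-0.51) had the largest falls on the log2 scale. The largest difference in the list was that of Phc2, at 36.5 ± 9.64 FPKM at 72 h and 66.0 ± 15.0 FPKM at 180 h (SD, n = 4; log2 difference 0.85 ± 0.36, SE), which did not pass (limma adjusted p = 0.0514) and was named after its values were seen. Cbx8, a chromodomain subunit, rose from 2.08 ± 0.430 to 3.26 ± 0.740 FPKM (SD, n = 4; limma adjusted p = 0.025), a call that was lost in 5 of 8 fits that each left out 1 library of 72 or 180 h.

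Of 18 tested genes of H3K9 methylation and heterochromatin, 11 were lower and none higher (9 and none with median-ratio scaling), with a median log2 change of -0.39. Cbx5, which encodes the heterochromatin protein HP1 alpha, fell from 101.1 ± 2.49 to 20.6 ± 2.95 FPKM (SD, n = 4; log2 change -2.25 ± 0.12, SE, limma adjusted p = 5.16e-17). The H3K9 methyltransferases Suv39h2 and Suv39h1 fell by 1.59 and 1.43 on the log2 scale. The other HP1 genes, Cbx3 and Cbx1, were picked after their values were seen and fell by 1.18 and 0.53.

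Most methyl-CpG readers and repressors did not pass the test. Of 12 tested, 2 were higher and 2 lower, and their median log2 change of -0.06 turned to 0.09 with median-ratio scaling. The zinc-finger readers Zbtb4 (log2 change 0.44) and Zbtb38 (0.31) rose. Usp7, a deubiquitinase that binds Dnmt1 and Uhrf1, fell from 57.0 ± 2.57 to 34.0 ± 3.34 FPKM (SD, n = 4; log2 change -0.74, limma adjusted p = 3.02e-06). Zbtb33 fell by 0.37 on the log2 scale, and did not pass with median-ratio scaling (limma adjusted p = 0.147).

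Partners of cytosine demethylation were split, with 4 of 9 tested higher and 3 lower; the median log2 change was -0.30, and 0.03 with array weights. Gadd45b, a stress-induced gene linked to active demethylation, rose from 4.88 ± 1.14 to 19.3 ± 6.53 FPKM (SD, n = 4; log2 change 1.75 ± 0.27, SE, limma adjusted p = 2.75e-06). Cxxc5, which binds unmethylated CpG, and the uracil glycosylase Smug1 rose by 0.42 and 0.33 on the log2 scale. Parp1 (-0.79), the thymine glycosylase Tdg (-0.53) and the abasic-site endonuclease Apex1 (-0.48), all of base excision repair, fell.

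Methyl groups for these enzymes come from S-adenosylmethionine, fed by the folate cycle. Of 14 tested genes listed for that supply, 9 were lower (7 with median-ratio scaling), with a median log2 change of -0.52. The mitochondrial folate enzymes Mthfd2 and Shmt2 fell by 1.19 and 0.96 on the log2 scale, Shmt2 with an adjusted p of 0.0505 under median-ratio scaling. Ahcyl1 fell by 0.81, while Ahcy, named after its values were seen, did not pass (log2 difference 0.19 ± 0.24, SE, limma adjusted p = 0.525). Mat2a, which makes S-adenosylmethionine and was picked after its values were seen, fell by 0.62.

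Among histone demethylases of H3K27 and H3K9, 5 of 11 tested were lower and 1 higher (3 and 2 with median-ratio scaling). Of the H3K27 demethylases, Kdm6a was lower (log2 change -0.54) and Kdm6b higher (0.57, limma adjusted p = 0.0375). The Kdm6b call was lost with a pseudocount of 0.1 (0.056), with no filter (0.0577) and in 5 of 8 fits that each left out 1 library (limma adjusted p up to 0.146). Kdm3b and Kdm1a fell by 0.66 and 0.62. Of 20 tested histone deacetylases and corepressors, 9 were lower and none higher, with a median of -0.25, and median-ratio scaling gave 7 lower and 3 higher. The largest falls were those of the corepressors Rcor1 (-0.76), Gatad2b (-0.65) and Sin3a (-0.59).

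**Figure D4:**
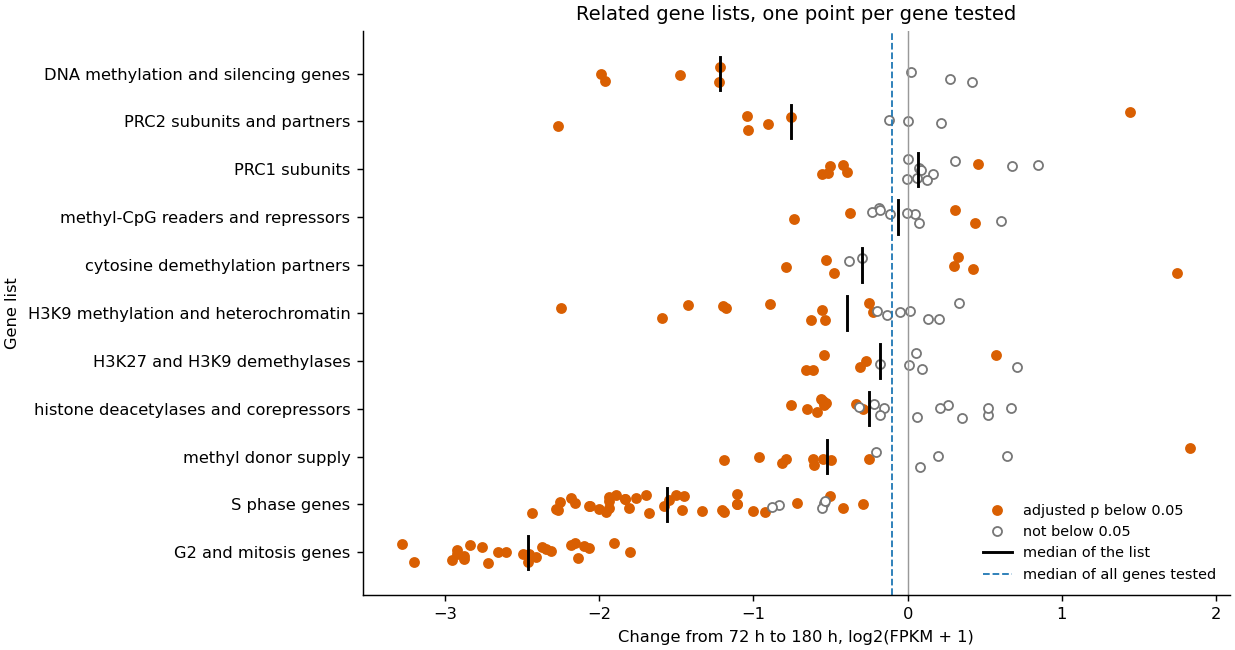
Log2 change from 72 to 180 h (horizontal axis) of each tested gene in the members and the related lists, with a bar at each list's median and the median of all genes, -0.10, as a line. S phase and G2 and mitosis genes lie lowest, with medians of -1.56 and -2.46, and the PRC2 list has a median of -0.76.

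Proliferation genes moved with the falling members, and their part in the members' falls was not tested. All 27 tested genes of G2 and mitosis were lower at 180 h, with a median log2 change of -2.46, and so were 37 of 42 S phase genes, with a median of -1.56. Summed levels of the S phase list went from 1651 to 1675 FPKM at 72 h to 549 to 619 FPKM at 180 h. Those of the G2 and mitosis list went from 2598 to 2938 FPKM to 389 to 511 FPKM. Hells and Cdca7, at -1.99 and -1.96, lay below the S phase median, Ezh2, Dnmt1 and Uhrf1 above it, and all 5 above the G2 and mitosis median. Rrm2, a subunit of ribonucleotide reductase, fell by 2.44, Gins1 and Cdc6, of replication start, by 2.28 and 2.27, and the mitotic genes Mki67, Top2a and Ect2 by 3.28, 3.2 and 2.95 on the log2 scale.

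The genes with the most similar time courses were found by the root mean square difference of centred log2 time means over the 10 times, a description of 40 shared libraries with no test. Nearest to Cdca7 were Rfc5 (0.045), Haus1 and Ska1, and to Hells Tmpo (0.049), Blm and Ska1. Dnmt1 lay nearest to Chd1l (0.046), Cit and Amotl2, Uhrf1 to Poc1a (0.060), Lig1 and Ncaph2, and Cenpu (0.051) and Ccsap were among the 3 nearest to Ezh2. Hspa2 (0.030) and Sart1 were the 2 nearest to Dnmt3a, while Tet2 lay nearest to Ankrd12 (0.030), Kiaa0232 and Otud7b, and Tet3 to Nod1 (0.029), Tns1 and Tle3. Among the members, Dnmt3a and Tet3 were nearest to each other (0.053), as were Hells and Cdca7 (0.063) and Dnmt1 and Uhrf1 (0.12).

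The members differed in how much libraries of the same time varied. The within-time SD on the log2 scale was 0.425 for Uhrf1, 0.277 for Tet3 and 0.203 for Hells, against a median gene at 0.197, and only 0.0941 for Cdca7 and 0.111 for Dnmt1. The within-time axis held 96.3% of the within-time variance of Uhrf1, 87.3% of that of Tet3, 78.1% of that of Dnmt3a, 77.7% of that of Hells and 75.1% of that of Ezh2, but 10.9% of that of Cdca7. Per SD of the axis Uhrf1 moved by 0.37, Tet3 by 0.23 and Dnmt3a by 0.14, in the opposite direction to Hells (-0.16) and Ezh2 (-0.12). These values describe the libraries that made the axis, and its part in the changes over time was not tested.

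**Figure D5:**
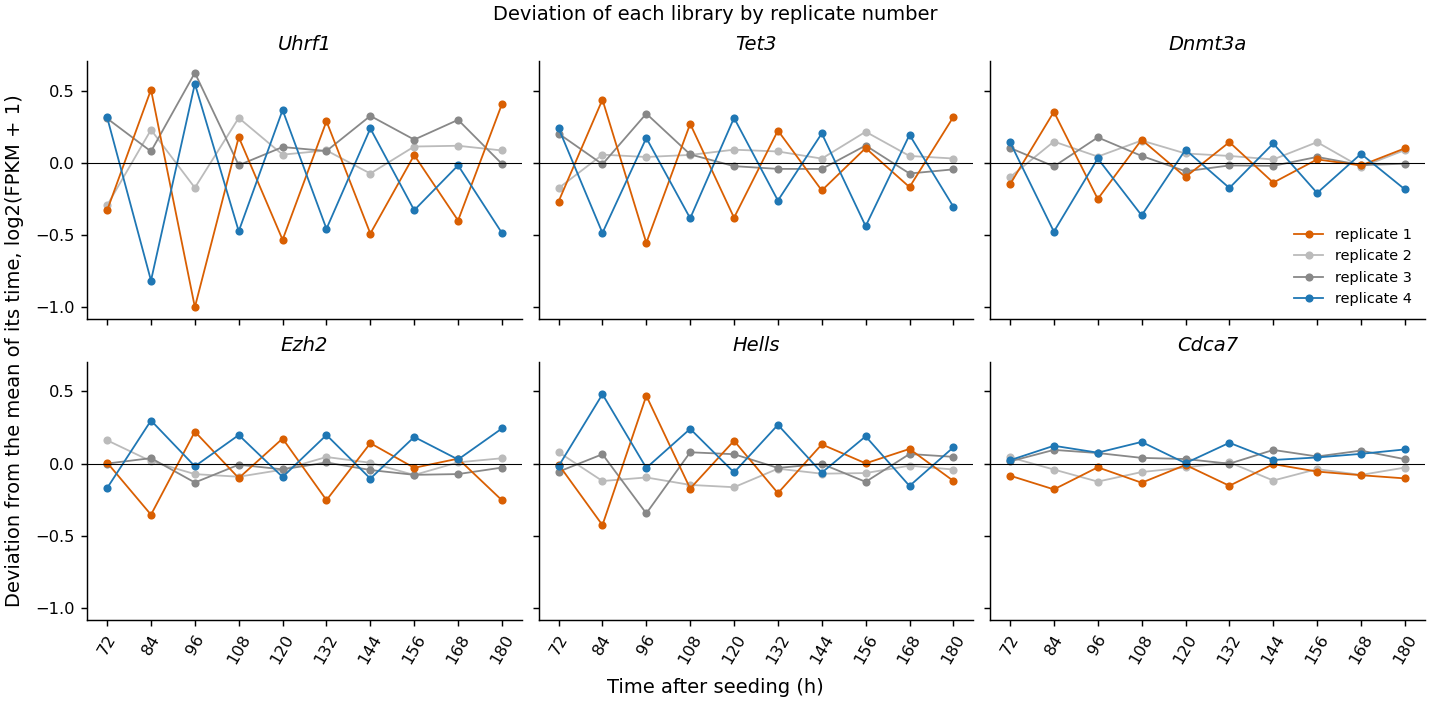
Deviation of each library from the mean of its time on the log2(FPKM + 1) scale (vertical axis) against time after seeding in hours, a line per replicate number, for Uhrf1, Tet3, Dnmt3a, Ezh2, Hells and Cdca7. Uhrf1, with a within-time SD of 0.425, has the widest spread and Cdca7, at 0.0941, the narrowest.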

How the data were processed

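The deposited values are FPKM per gene and library, made by the authors with Cufflinks 2.2.1 after FastQC, Trimmomatic 0.32 and SAMtools 1.0, per the submitters' processing notes; the aligner, genome build and strand setting were not given in the sources used here. Each table held 27868 lines, of which 23 had no gene ID and were left out, and lines sharing an ID were summed. Symbols came from the RefSeq gene table of assembly CriGri-PICRH-1.0, which matched 23196 of 26793 IDs; no coordinates or sequences are given because no genome of the files' build was used. FPKM are not counts, so absolute depth is unknown and no counting intervals are given; the relative depth was read from shared ratios of low values. No libraries were identical.

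The 12259 genes that reached 1 FPKM in 4 or more libraries were fitted as log2(FPKM + 1) in limma 3.58.1 (R 4.3.3) with a mean per time over all 40 libraries, trend and robust moderation, 30 residual degrees of freedom and Benjamini-Hochberg adjustment over all tested genes, two-sided at 0.05. The pseudocount of 1 understates changes of low genes. Ratios were tested in SciPy 1.17.1; 5 of the 6 designed were run, since Dnmt3b was unmatched. The fit was tested on simulated data with independent noise in each gene and library. The real deviations share the within-time axis, so that test does not vouch for the calls made here.

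The members and lists were chosen with earlier results of these data known. The genes named from each list were up to 3 with the largest rise and up to 3 with the largest fall among those past the test from 72 to 180 h, partners in a ratio, cell identity markers, and the 3 nearest time courses per member; others are marked where named, and some genes that the rule picks are not reported here. Alternatives were other pseudocounts (0.1 and 5), no filter, a filter of 5 FPKM, median-ratio scaling, array weights, a replicate block, plain moderation, IDs on a single line, leaving out libraries, and only the compared times in the fit.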

Additional observations from a re-analysis of the deposited data

Results flagged for a closer look

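Dnmt3a at 168 h had a library apart from the other 3. The values were 10.24, 10.33, 10.35 and 10.98 FPKM, the highest being replicate 4, and the gap took 0.846 of the range, past Dixon's critical value for 4 samples. It was 1 of 80 groups of 4 examined, and chance gives about 1 in 20.

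Cdca7 changed differently in the last window (144 to 180 h) than in the first (72 to 108 h). The difference was 0.396 on the log2 scale (limma adjusted p = 0.0212), a smaller fall late in the culture. It did not pass without replicate 1 of 108 h (0.0699), replicate 2 of 108 h (0.0525), replicate 2 of 144 h (0.0605) or replicate 4 of 180 h (0.0584), all adjusted p-values from limma.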

How the results depend on the processing

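The 5 falling members were lower at 180 h under every alternative run. Members higher at 180 h numbered 0, but 2 with median-ratio scaling, array weights or without the 84 h and 96 h libraries farthest out, 1 with only the compared times, and 0 to 2 leaving out single libraries; from 72 to 108 h array weights gave 2. Members lower from 144 to 180 h numbered 1, but 5 with array weights, 2 without the farthest libraries, 0 with only the compared times, and 0 to 1 leaving out single libraries. Members differing between last and first window numbered 1, but 7 with array weights, 3 without the farthest libraries, and 0 to 1 leaving out single libraries. The cause of these shifts was not tested.

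Some signs turned. Tet3 from 144 to 180 h was 0.015 with median-ratio scaling and -0.13 to 0.082 leaving out single libraries. Array weights gave -0.016 for Ezh1 and -0.089 for Uhrf2 from 72 to 180 h, where leaving out libraries gave -0.054 to 0.071 and -0.048 to 0.11. Tet2 ran from -0.013 to 0.068 over the batch, -0.073 to 0.0012 from 72 to 108 h and -0.011 to 0.069 from 144 to 180 h. The ratio of Dnmt1 to Uhrf1 was 0.014 with a pseudocount of 0.1 and -0.18 to 0.14 leaving out libraries, and that of Hells to Cdca7 -0.047 to 0.0024. Leaving out a library leaves 4 against 3 in the ratios, whose smallest exact p is 0.0571.

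Over all times Tet3 passed in 11 of 40 fits that left out 1 library (limma adjusted p from 0.0178 to 0.169), with median-ratio scaling (0.011) and with array weights, and Tet2 with median-ratio scaling (0.0247) and array weights (0.00145).

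Counts over all genes moved by over 1.5 times under several alternatives. Array weights gave 3383 higher from 72 to 180 h (1938 in the reported fit), 3434 higher and 3358 lower from 72 to 108 h (914 and 1379), 1006 and 3107 from 108 to 144 h (371 and 1553), 324 and 706 from 144 to 180 h (58 and 112), 5758 between windows (401) and 10587 over all times (6118). Without the farthest libraries they were 1445 higher from 72 to 108 h, 592 higher from 108 to 144 h, 105 and 187 from 144 to 180 h, and 977 between windows. Median-ratio scaling gave 669 and 738 from 108 to 144 h and 96 higher from 144 to 180 h. Only the compared times gave 231 and 906, and 34 and 45. Leaving out single libraries gave 207 higher from 108 to 144 h (without replicate 4 of 108 h), 804 lower in that window without the same library, 67 lower from 144 to 180 h without replicate 1 of 180 h and 74 without replicate 3 of 144 h, and 251 between windows without replicate 1 of 108 h and 267 without replicate 4 of 72 h.

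Same-numbered libraries of 72 and 180 h tended to deviate in opposite directions, with correlations between -0.449 and -0.124 across genes. Such values are a link between the libraries, but not a shared offset, and the reported fit did not pair them. Over all 45 pairs of times, 9 to 20 pairs per number were above 0.1. A replicate block changed no member's call, with 0 higher and 5 lower from 72 to 180 h, and gave 1914 genes higher and 4059 lower. The block fits a constant offset per replicate number. It cannot take up deviations that change sign between neighbouring times, as those of numbers 1 and 4 did, so the unchanged calls do not bear on that pattern. Absolute depth is unknown, and FPKM measure shares of RNA, not amounts per cell.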

Other observations

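The replicate numbers carried an alternating pattern in several members. Replicate 4 lay above replicate 1 at 72, 96, 120, 144 and 168 h, and below it at 84, 108, 132, 156 and 180 h, for Uhrf1, Tet3 and Dnmt3a. Ezh2 and Hells showed the reverse at all 10 times, and Cdca7 had replicate 4 above replicate 1 at all 10. Across the 12259 genes, which are not independent replicates, deviations of libraries numbered 1 correlated between -0.779 and -0.333 when 12 h apart and between 0.309 and 0.689 when 24 h apart. For libraries numbered 4 the ranges were -0.673 to -0.317 and 0.222 to 0.703. For numbers 2 and 3 the correlations at 12 h lay between -0.369 and 0.126. At 24 h they lay between -0.0777 and 0.345 for number 2 (7 of 8 pairs above 0). For number 3 they lay between -0.0412 and 0.519 (5 of 8 above 0). The pattern was noticed in these data and its cause was not tested.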
